A study of Mus musculus with 18 samples.

Results

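Interferon-stimulated genes are the genes that a cell switches on when it detects interferon or foreign nucleic acid. The set described here was a list of 49 mouse symbols, chosen by name, and 47 of them had a row among the 20325 genes of the expression tables. Gbp7 and Ifi27 had no row under those symbols. RNA was sequenced from the cell line C3H10T1/2, mouse embryo cells that can become fat, bone or cartilage, and from tumors grown from them. One line stably expressed FLAG-HA-tagged wild-type histone H3.3 (n = 2 libraries), one FLAG-HA-tagged H3.3K36M (n = 2) and one FLAG-HA-tagged H3.1K36M (n = 2), where K36M replaces lysine 36 with methionine. Parental cells received scramble siRNA (n = 3, called control siRNA) or siRNAs against Nsd1, Nsd2 and Setd2, which encode histone H3 lysine 36 methyltransferases (n = 3, called HMT siRNA). For the tumors (n = 6), 2000000 H3.3K36M cells in Matrigel were placed under the skin of both flanks of female mice of 6 to 8 weeks, labelled both athymic and SCID, and the growths were collected after 5 to 6 weeks. Cultured cells were at passage 10 to 15. Each histone line stood for its genotype alone, there was no wild-type H3.1 line, and the labels did not say whether libraries of a group came from separate cultures or mice, so 2 tumors may share a mouse. All p-values here thus rest on the variation among libraries, part of which may be technical. Host and graft were both mouse, so tumor RNA could not be divided between them.

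Type I interferons (alpha and beta) and type III interferons (lambda) signal through the kinases Jak1 and Tyk2 to a transcription complex with Stat2 and Irf9, which binds a sequence called the interferon-stimulated response element (ISRE). Interferon gamma acts through Jak1 and Jak2, and its response is known for another element, the gamma-activated sequence (GAS). The induced genes encode sensors of viral RNA, the transcription factors that keep the response going, and proteins that block viral entry, translation or release. Fibroblasts keep many of them at a low basal level without infection, and macrophages and other leukocytes express several strongly.

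The 2 elements were searched in promoters of the set, since the response is known to act through them. RefSeq (GRCm38.p6, C57BL/6J reference, not the C3H strain of the cells) gave promoter windows, from 250 bases before to 50 after the start, for 34 of the 47 genes by symbol. The ISRE letters (GAAA, 2 bases of any kind, GAAA) were searched on both strands and occurred in 17 of 34 genes (50%), against 3.99% of 27025 genes with such windows. The GAS letters TTCNNNGAA, also on both strands, occurred in 9 of 34 (26.5%), against 9.55%. Bst2 was the 1 gene where both matches overlapped. Stretches of 60 bases are shown for 6 genes whose levels are described below, 1 or more from each of the transcription factor, IFIT, OAS, ISG15 and effector groups. Each is written 5′ to 3′ in the direction of its gene, and capitals mark ISRE letters.
Isg15, chr4:156200862-156200921, minus strand: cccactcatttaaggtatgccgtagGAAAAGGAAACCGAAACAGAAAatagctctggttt
Ifit1, chr19:34640760-34640819, plus strand: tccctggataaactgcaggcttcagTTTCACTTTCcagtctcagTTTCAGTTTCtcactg
Ifit3, chr19:34583382-34583441, plus strand: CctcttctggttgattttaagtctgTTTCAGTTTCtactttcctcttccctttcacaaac
Oas1a, chr5:120907526-120907585, minus strand: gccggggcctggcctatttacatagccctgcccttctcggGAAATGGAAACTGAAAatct
Bst2, chr8:71537568-71537627, minus strand: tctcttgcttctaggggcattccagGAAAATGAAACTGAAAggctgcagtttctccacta
Stat2, chr10:128270251-128270310, plus strand: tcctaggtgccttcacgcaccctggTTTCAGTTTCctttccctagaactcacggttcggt
In Isg15, Oas1a and Bst2 the repeated GAAA units overlap into 1 run, whereas Ifit1 holds 2 separate matches on the other strand. The Ifit3 stretch opens with the last letter of a second upstream match. Irf7, Irf9, Ifit2, Oasl1, Oasl2, Cmpk2 and Ifi44 had a window without these letters, which says nothing about binding outside it.

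Levels are given as the authors' normalised estimated counts. Depth ran from 13993307 to 56041798 estimated reads per library, and a level of 1 stands for a few reads at most. It was 34022137 to 56041798 in H3.3K36M against 23343297 to 25322433 in wild-type H3.3 libraries. With HMT siRNA it was 22406728 to 33107488, against 13993307 to 19346834 with control siRNA. Setd2 was at 1063 to 1224 in HMT siRNA libraries and 3114 to 3401 in control siRNA libraries, Nsd1 at 3189 to 3422 and 4392 to 5007, and Nsd2, listed as Whsc1, at 1019 to 1121 and 1565 to 1607. The groups did not overlap for any of the 3 targets. Mesenchymal markers (9 genes, among them Col1a1 and Thy1) were above 10 in every group. Reads of closely related copies within the Oas, Ifit, Gbp and p200 families could be divided between them by the authors' counting, so single members of those families are uncertain to that extent.

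The basal state of the wild-type H3.3 line was mixed. Levels are not per length, so genes are compared between libraries and not with each other. Lgals3bp, a secreted glycoprotein, was at 3199 and 3203, and Stat2, part of the type I interferon transcription complex, at 1661 and 1654. Oasl1, Trim25, Cmpk2 and Epsti1 were listed at 0 in both libraries, and Rsad2, Gbp4 and Oas1a did not exceed 2.13. Of 10 interferon ligand genes in the table, all but Ifne were at 0 in both wild-type libraries, and Ifne was at 1.99 and 1.07.

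The first question was whether H3.3K36M changed this basal state. Of 43 members tested, 19 were higher in H3.3K36M than in wild-type H3.3 cells, 12 were lower and 12 did not pass the threshold (limma, adjusted p under 0.05 over 13186 genes). Among all genes tested, 37.5% were higher and 33.3% lower, so these shares are near the background. By at least 2-fold, 12 members were higher and 1 lower, against 12.2% and 8.17% of all genes. The members' median log2 change was 0.19, beside 0.02 for all genes, and it was -0.08 after quantile normalisation. The members thus split, with steep rises in some genes that were near 0 in wild-type cells and falls in others. Of the former, Cmpk2 and Zbp1 reached 10, the minimum for testing, only in the H3.3K36M libraries, so they could not be called lower. Gbp4 reached it in only 1 library outside that group, with HMT siRNA (11.2). It too needed the H3.3K36M libraries to be tested and could hardly be called lower.

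The sensors of viral RNA did not move as 1 group. Ifih1, which encodes the RNA sensor MDA5, was at 3.53 and 5.33 in wild-type libraries and at 27.2 and 30.9 in H3.3K36M libraries. The groups did not overlap, and Ifih1 rose by 2.48 ± 0.26 (SE, log2, adjusted p = 8.2e-08). Ddx58, which encodes the sensor RIG-I, was at 978 and 988 against 1075 and 1105, a rise of 0.15. Zbp1, a sensor of Z-form nucleic acid, was at 1.99 and 4.27 against 22.4 and 21.6, but this call was lost after quantile normalisation (adjusted p = 0.061), with a pseudocount of 0.1 (0.11) and without wild-type library 1 (0.069). Adar, the RNA-editing enzyme, was lower by a log2 value of -0.18, while Dhx58 and Eif2ak2 did not pass the threshold.

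The transcription factors went both ways. Irf9, the DNA-binding subunit of the type I complex, was at 911 and 856 in wild-type cells and at 588 and 618 in H3.3K36M cells. Its levels did not overlap, and it fell by 0.55 ± 0.06 (SE, log2). Stat2 was at 1661 and 1654 against 1332 and 1418, a fall of 0.27. Both genes were lower in each mutant library than in either wild-type library. Irf1, an interferon-gamma target and transcription factor, was higher by 0.67. Irf7, which amplifies type I interferon production, was at 36.7 and 42.7 against 56.1 and 55.4, a log2 difference of 0.48 that lost its call under quantile normalisation (0.13, adjusted p = 0.51) and without either H3.3K36M library or wild-type library 1. In the second table its call was lost too (adjusted p = 0.066).

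The 2 families of RNA-binding effectors differed. Among the IFIT genes, whose products bind viral RNA and block its translation, Ifit3 was at 719 and 766 in wild-type cells and 223 and 263 in H3.3K36M cells, and fell by 1.61 ± 0.10 (SE, log2). Ifit2 also fell, by 0.53, whereas Ifit1 was at 112 and 100 against 101 and 117 with overlapping groups (log2 0.03, adjusted p = 0.82). Among the OAS genes, which encode sensors of double-stranded RNA and their relatives, Oas1a went from 0.99 and 2.13 to 59.8 and 65.6. The rise of Oas1a was 4.67 ± 0.31 (SE, log2), the largest of the set here. In estimated reads its ratio was 40.2 (95% counting interval 13.6 to 197), because the wild-type libraries held 3 reads between them. Oasl2 went from 6.95 and 6.40 to 49.97 and 64.7, and Oas2 from 16.9 and 21.3 to 61.3 and 79.1, neither with overlap. Oas1b and Oas3 did not pass the threshold.

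The remaining effectors were also divided. Isg15, a ubiquitin-like protein joined to other proteins, was at 40.6 and 34.3 against 49.9 and 55.8. Its groups did not overlap, yet the log2 difference of 0.49 lost its call under quantile normalisation (0.13, adjusted p = 0.49) and without wild-type library 2 or H3.3K36M library 2. Bst2, the tetherin that holds virions at the cell surface, rose from 212 and 232 to 944 and 989, by 2.12 ± 0.18 (SE, log2). Cmpk2, a nucleotide kinase next to Rsad2 in the genome, was at 0 in both wild-type libraries and at 11.4 and 15.8 in the mutant, at least 8.48-fold higher when the wild-type group is set to 3 reads. The GTPase genes Gbp4 (0 and 1.07 against 18.2 and 17.3) and Iigp1 (7.94 and 5.33 against 28.9 and 35.2) rose, as did Gbp2 by 1.25. Irgm1, another GTPase, fell by 0.61. The p200 genes Ifi203 and Ifi204, relatives of the DNA sensor IFI16, rose by 1.92 and 0.95. Parp14, an ADP-ribosyltransferase, rose by 1.44, while its partners Parp9 and Dtx3l fell by 0.38 and 0.21, of which the fall of Dtx3l was not past the threshold after quantile normalisation. Lgals3bp fell by 0.75 and Ifi44 by 0.64.

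**Figure D1:**
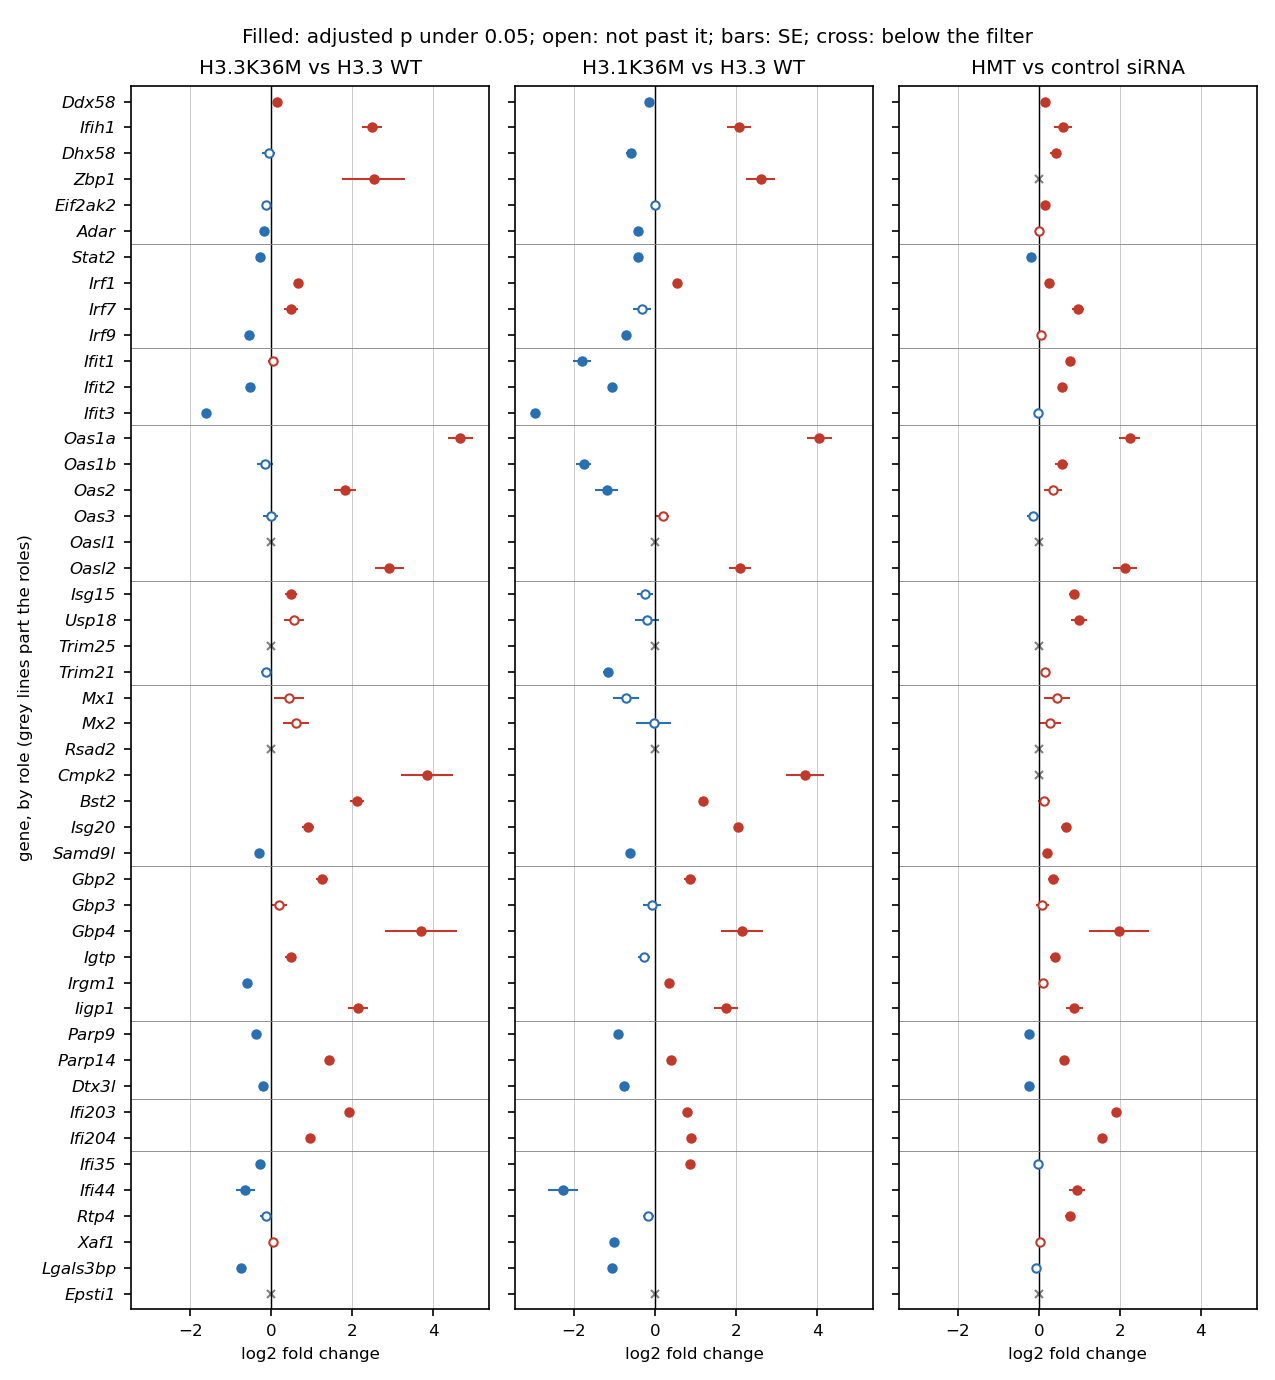
Log2 fold change (x axis, on log2(value + 1), bars SE) of each of the 47 genes (y axis, by role) for H3.3K36M against wild-type H3.3 (4 libraries), H3.1K36M against wild-type H3.3 (4 libraries) and HMT against control siRNA (6 libraries); red points are above 0 and blue points below, filled points have an adjusted p under 0.05, and crosses mark genes under the filter on low values. Each SE uses a spread estimated over all cultured libraries of the same table. Oas1a reaches 4.67, 4.06 and 2.24, while Ifit3 lies at -1.61 and -2.97 in the mutants and at -0.02 in the knockdown.

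Of 58 other genes listed for the pathway, 57 had a row and 42 could be tested, and 23 were higher and 8 lower in H3.3K36M cells. Among interferon-gamma responsive genes, 10 of 13 tested were higher and 0 lower. Ccl5 of these, and Tlr7 and Il28ra of the other lists, reached 10 only in the H3.3K36M libraries, so they could hardly be called lower. Nlrc5, which drives MHC class I genes, went from 37.7 and 46.9 to 402 and 447, and the immunoproteasome subunit gene Psmb9 from 30.8 and 27.7 to 146 and 143. Tmem173, which encodes the DNA-sensing adaptor STING, rose by 2.12. Tlr3 and Tlr4 fell by 1.25 and 1.35. Macrophage markers (11 of 12 listed genes in the table) summed to 182 and 193 in wild-type and to 413 in each mutant library, and 4 of the 5 tested were higher. Most of that rise was Lyz2, at 46.4 and 40.3 against 160 and 156, and Cd14, at 90.3 and 107 against 152 and 163. Csf1r and Mpeg1 each reached 10 outside H3.3K36M in only 1 library, with HMT siRNA, so they could hardly be called lower. Ptprc, which marks leukocytes, was at 0 in wild-type cells and at 3.51 and 5.03 in mutant cells, and Emr1 was at 0 against 0.44 and 2.16. The mutant libraries were deeper, so 1 read stood for 0.44 and 0.72 there and for 0.99 and 1.07 in wild-type libraries. Of the red cell markers, Hba-a1, an alpha-globin gene, was at 1.99 and 6.40 in wild-type and at 664 and 631 in mutant cells (log2 7.11), while Hbb-b1 and Hba-a2 were at 0 in all 4 libraries. Their part in the rise of any member was not tested.

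The knockdown of the methyltransferases gave mostly higher levels. Of 41 members tested, 24 were higher with HMT siRNA than with control siRNA, 3 were lower (Stat2, Parp9 and Dtx3l) and 14 did not pass the threshold. Among 12634 genes tested, 32.6% were higher and 32.8% lower. The 5 members higher by at least 2-fold stand beside 4.81% of all genes, and 0 were lower by that much, beside 4.81%. The median log2 change of the members was 0.36, and 0.49 after quantile normalisation. Most changes were under 2-fold.

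Irf7 and widely used markers of the response, Isg15 and Ifit1, rose in the knockdown. Irf7 was at 80.4, 76.5 and 60.7 in control libraries and at 137, 141 and 148 in HMT libraries, and rose by 0.97 ± 0.14 (SE, log2, adjusted p = 4.8e-06). Isg15 was at 98.6, 99.6 and 109 against 191, 208 and 167, and rose by 0.87 ± 0.13. Ifit1 was at 343, 267 and 291 against 511, 544 and 477, and rose by 0.77 ± 0.10. In none of these did the groups overlap. Usp18, the protease that removes ISG15 and dampens receptor signalling, was at 65.3, 47.7 and 70.9 against 135, 110 and 120, and rose by 0.99. Ifi44 was at 44.0, 42.7 and 29.4 against 75.3, 74.6 and 72.2, and rose by 0.94. Stat2 was lower, at 1853, 1939 and 1690 against 1663, 1579 and 1562 (log2 -0.19), and Irf9 was at 999, 1054 and 1052 against 1054, 1101 and 1076, which did not pass the threshold (adjusted p = 0.29).

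Among the largest changes with HMT siRNA were those of 2 OAS and both p200 genes. Oas1a was at 16.7, 10.1 and 14.4 in control libraries and at 65.2, 63.3 and 73.9 in HMT libraries, a rise of 2.24 ± 0.26 (SE, log2). Oasl2 was at 25.8, 30.1 and 10.4 against 101, 94.0 and 80.9. Ifi203 rose by 1.89 ± 0.07 (SE, log2), from 313, 295 and 280 to 1106, 1140 and 1056, and Ifi204 from 455, 450 and 404 to 1221, 1320 and 1288. Every HMT library was above every control library for these 4 genes. They were named for their large changes, and the share of all genes so apart is not given here. Gbp4 was at 9.76, 0 and 0 against 4.55, 11.2 and 8.65, so its groups overlapped and its call (adjusted p = 0.026) was lost without HMT library 2 or 3 or control library 2 or 3, with a pseudocount of 10 (adjusted p = 0.066) and with plain empirical Bayes (0.086). Its log2 change without those libraries was 1.40 to 1.90. Ifit3 (adjusted p = 0.80) and Bst2 (0.48), which changed by over 2-fold in H3.3K36M cells, did not pass the threshold here. Among the other pathway genes 12 of 39 were higher and 7 lower, with 2 of 12 interferon-gamma responsive genes higher and 2 lower. Ligands were again at or near 0. Macrophage markers summed to 140 to 191 in control and 274 to 323 in HMT libraries, with Ptprc at 0 in all 6. Most of that rise was Cd14, at 95.6 to 128 against 226 to 254, and the list did not move together. Cd68 was at 19.7 to 29.0 against 14.4 to 21.7, and Lyz2 at 15.6 to 18.2 against 16.4 to 25.8. Of the red cell markers, Hba-a1 was at 0 to 3.04 in control and 11.9 to 14.4 in HMT libraries. Their part was not tested.

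**Figure D2:**
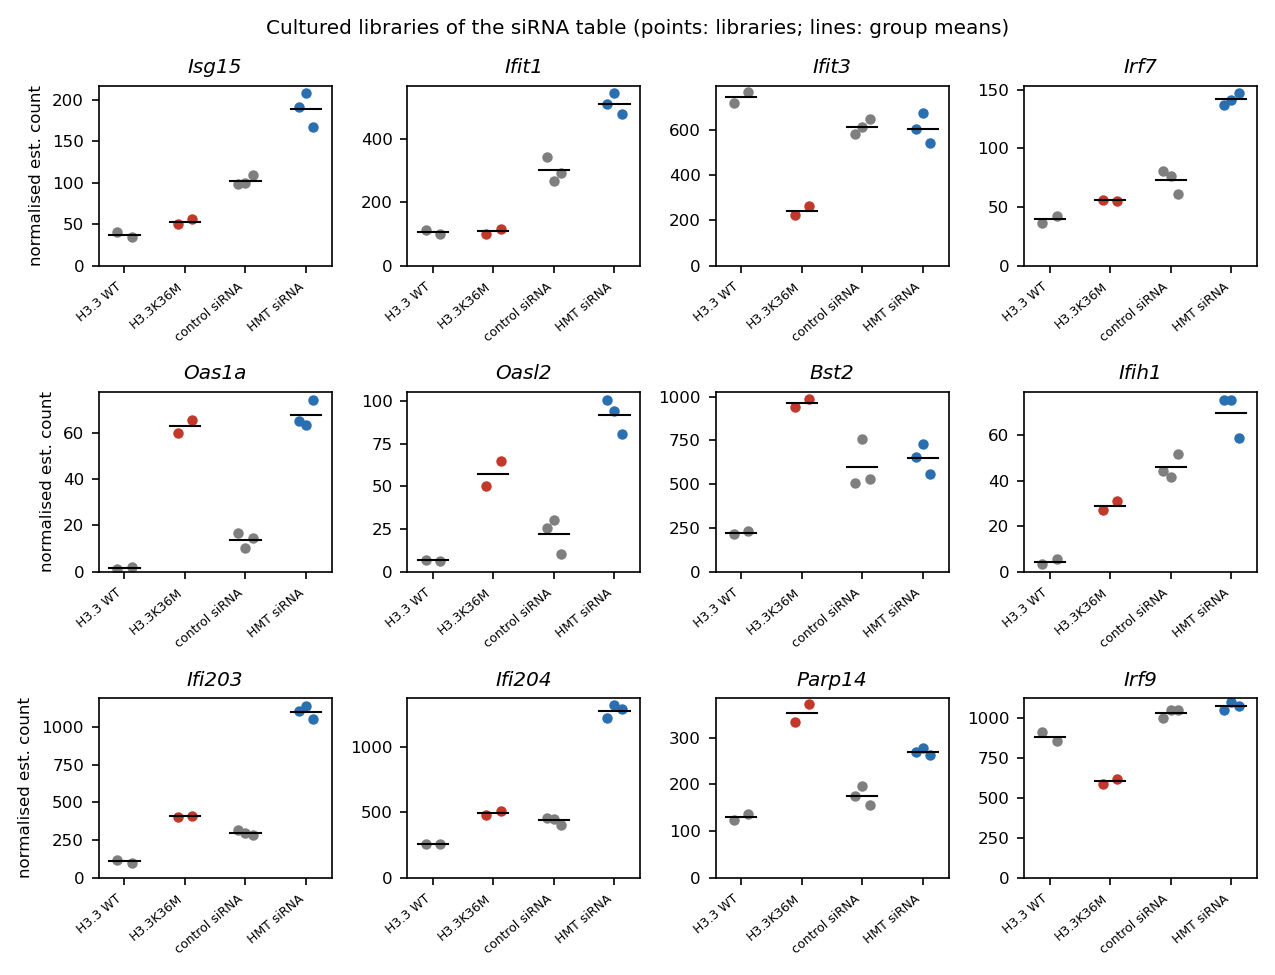
Normalised estimated counts (y axis, from 0) of 12 interferon-stimulated genes in the 10 libraries of the siRNA table; points are libraries and lines are group means (H3.3 WT and H3.3K36M n = 2, control and HMT siRNA n = 3). Isg15 and Ifit1 are lowest in both H3.3 groups and highest with HMT siRNA, whereas Bst2 is highest in H3.3K36M cells at 944 and 989.

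The responses to the mutant histone and to the knockdown share no library, so their difference was tested directly. Of 43 members, 8 responded more positively in H3.3K36M cells, 14 more negatively and 21 did not pass the threshold, beside 27.5% and 27.4% of 13186 genes. By at least 2-fold, 5 were on the positive and 3 on the negative side, beside 9.89% and 5.76% of all genes. Oas1a (2.43 ± 0.40, SE, log2), Bst2 (1.98 ± 0.23), Ifih1 (1.89 ± 0.33) and Oas2 (1.48 ± 0.36) were on the positive side. So was Iigp1 (1.25), which was not past the threshold after quantile normalisation (0.49, adjusted p = 0.19). All 3 IFIT genes were on the negative side: Ifit3 (-1.59), Ifit2 (-1.10) and Ifit1 (-0.74). Ifi44 (-1.58) and Irf9 (-0.61) were also there. For Isg15 (-0.38, adjusted p = 0.12) and Irf7 (-0.48, adjusted p = 0.070) the difference did not pass the threshold, but it did after quantile normalisation (-0.83 and -0.93). Among the interferon-gamma responsive genes 9 of 13 were on the positive side, led by Ccl5 (3.08), Nlrc5 (2.93) and Psmb8 (2.53), and 0 on the negative side. Ccl5 and the members Cmpk2, Zbp1 and Gbp4 passed the minimum of 10 only through the H3.3K36M libraries. They could thus hardly be on the negative side.

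Each response started from its own reference, and the references differed. Wild-type H3.3 cells had 27 members lower than control siRNA cells, 4 higher (Dhx58, Ifit3, Oas1b and Mx1) and 12 not past the threshold, against 28.4% of all genes lower and 30.4% higher. Those higher numbered 2 without wild-type library 1, wild-type library 2 or control library 3. Of those lower, 13 were so by at least 2-fold, beside 5.48% of all genes, and 0 were higher by that much, beside 7.33%. Isg15 was at 40.6 and 34.3 against 98.6 to 109 (log2 -1.43 ± 0.14, SE), and Ifit1 at 112 and 100 against 267 to 343 (log2 -1.49 ± 0.11). Ifih1 (-3.12), Oas1a (-2.53), Mx2 (-2.53), Iigp1 (-2.43), Gbp3 (-1.72), Usp18 (-1.69) and Oasl2 (-1.46) were all lower in the wild-type H3.3 line. Mx2, an interferon-induced antiviral GTPase, was at 7.94 and 4.27 against 39.5, 33.7 and 43.0 without overlap. Ifih1 was at 3.53 and 5.33 against 44.0, 41.4 and 51.9, and Iigp1 at 7.94 and 5.33 against 37.9, 37.6 and 43.2. Gbp3 was at 26.2 and 25.6 against 92.2, 90.3 and 80.8, and Usp18 at 13.9 and 23.5 against 65.3, 47.7 and 70.9. The groups were apart for each of these genes, which were named for their large changes. Irf7 (-0.85), Irf9 (-0.23) and Stat2 (-0.14) were lower too, though Stat2 lost its call without either wild-type library or control library 1 or 2 and in 2 other settings. The line, the transfection and any batch cannot be told apart in this contrast. Macrophage markers summed to 182 and 193 against 140 to 191, and endothelial markers to 937 and 975 against 218 to 250, and their part was not tested. The endothelial sums were mostly Tek (711 and 670 against 187 to 210) and Vwf (242 and 251 against 21.2 to 32.6). Cdh5 was at 20.8 and 10.7 against 0 to 2.51, while Pecam1, Kdr, Emcn and Tie1 did not exceed 3.76 in either group. The H3.3K36M levels of Isg15 (49.9 and 55.8) and Ifit1 (101 and 117) also lay below every control siRNA library.

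The H3.1K36M line carried the same substitution in the other main histone variant. Against the same wild-type H3.3 libraries, 16 of 43 members were higher in H3.1K36M cells, 17 lower and 10 not past the threshold, against 41.1% and 38.4% of 13404 genes. By at least 2-fold, 9 were higher and 9 lower, beside 12.6% and 12.2% of all genes. Cmpk2, Zbp1, Oas1a, Ifih1 and Oasl2 reached 10 only in mutant libraries here, and Gbp4 only in those of H3.3K36M. Such genes could hardly be called lower than in wild-type cells. This contrast shares its reference with that of H3.3K36M, so their values are set side by side without a test of likeness. Oas1a changed by 4.06 in H3.1K36M and 4.67 in H3.3K36M cells (log2), Cmpk2 by 3.70 and 3.85, Zbp1 by 2.61 and 2.53, Ifih1 by 2.07 and 2.48, Oasl2 by 2.09 and 2.92, and Gbp4 by 2.15 and 3.71. Ifit3 changed by -2.97 and -1.61, and Ifi44 by -2.28 and -0.64. On the scale of the second table, which the authors normalised separately, Oas1a was at 1.34 and 2.89 in wild-type, 78.8 and 86.6 in H3.3K36M and 45.9 and 52.7 in H3.1K36M libraries. Ifit3 was at 967 and 1037, then 293 and 347, then 131 and 122. Both genes thus had the wild-type libraries at 1 end and both mutant lines apart from them. Ifi44 was at 36.1 and 40.3 in wild-type, 24.0 and 22.8 in H3.3K36M and 4.19 and 11.5 in H3.1K36M libraries. Gbp4 was at 0 and 1.44, then 24.1 and 22.9, then 6.00 and 5.85, and Cmpk2 at 0 and 0, then 15.0 and 20.9, then 12.6 and 11.5. In the H3.1K36M libraries Zbp1 was at 25.8 and 33.5, Ifih1 at 27.9 and 27.8 and Oasl2 at 34.9 and 49.8. The wild-type levels in this table were 2.67 and 5.78, 4.76 and 7.22, and 9.35 and 8.66. Irf9 was at 1226 and 1159 in wild-type and 709 and 749 in H3.1K36M cells (log2 -0.71). Stat2 was at 2235 and 2239 against 1659 and 1693 (-0.42). Isg15 (-0.25, adjusted p = 0.26) and Irf7 (-0.32, adjusted p = 0.18) did not pass the threshold, and Ifit1 was lower, with a log2 value of -1.81.

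The mutant lines themselves differed. H3.1K36M cells had 28 of 43 members lower than H3.3K36M cells and 4 higher (Eif2ak2, Isg20, Irgm1 and Ifi35), against 32.8% and 35.4% of all genes. By at least 2-fold, 11 were lower and 2 higher, beside 10.3% and 2.80% of all genes. The members lower numbered 16 when the fit also held the tumors, 20 to 24 with 1 library left out and 21 after quantile normalisation. Oas2 was at 80.8 and 104 in H3.3K36M, 8.37 and 13.4 in H3.1K36M and 22.7 and 28.9 in wild-type cells, so it was higher in 1 mutant line and lower in the other (log2 -3.00 ± 0.28, SE, between the mutants). Ifit1 was at 133 and 154 in H3.3K36M and 54.8 and 29.4 in H3.1K36M cells, a log2 difference of -1.81 ± 0.23. Oas1b was at 81.0 and 83.3 in H3.3K36M and 30.0 and 23.9 in H3.1K36M cells. Oas1b (-1.58), Ifi44 (-1.60), Gbp4 (-1.82) and Ifit3 (-1.32) were lower too, though Gbp4 lost its call without either H3.3K36M library (adjusted p = 0.065 and 0.055) and with a pseudocount of 0.1 (0.13). Isg15 was at 65.8 and 73.7 against 38.7 and 46.0 (log2 -0.71, adjusted p = 0.0053), and Irf7 at 74.0 and 73.1 against 34.9 and 51.8 (log2 -0.78, adjusted p = 0.0049), though neither passed after quantile normalisation (adjusted p = 0.24 and 0.15) or without H3.1K36M library 1, and Isg15 did not without H3.3K36M library 2 either. Irf9 did not pass the threshold (adjusted p = 0.060), and Stat2 was lower by a log2 value of -0.11. The Stat2 call was lost without H3.3K36M library 2 or either H3.1K36M library (adjusted p = 0.20, 0.17 and 0.085), without the trend and robust options of the fit (0.083) and when the fit held the tumors (0.77). Isg20, an RNA exonuclease, was at 178 and 166 in H3.3K36M and 391.8 and 389 in H3.1K36M cells. Ifi35, an interferon-induced leucine zipper protein, was at 465 and 470 against 1061 and 1073, with the wild-type libraries in between at 618 and 549. Of the interferon-gamma responsive genes, 9 of 13 were lower in H3.1K36M cells and 2 higher. Macrophage markers summed to 565 and 585 in H3.1K36M, 545 and 546 in H3.3K36M and 245 and 262 in wild-type cells. Hba-a1 was at 248 and 230.0, 876 and 833, and 2.67 and 8.66 in the same order. Their part was not tested.

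The tumors were set against the cells they were grown from, and here nearly the whole set was higher. Of 47 members tested, 44 were higher in the 6 tumors than in the 2 H3.3K36M libraries and 0 lower, against 41.0% of 14842 genes higher and 34.2% lower. By at least 2-fold, 43 were higher, beside 26.5% of all genes. Trim25, Epsti1 and Rsad2 were under 10 in all 6 cultured libraries, as were 9.35% of all genes. These 3 entered the test only through the tumors and could hardly be called lower. Oasl1 (6.94 and 10.4) and Mx2 (9.82 and 15.8) did not reach 10 in both H3.3K36M libraries, so they also needed the tumors to be tested. The members' median log2 change was 4.16, beside 0.14 for all genes; after quantile normalisation the 2 medians were 3.65 and -0.12. Summed over the 47 genes, the set took 0.0565 to 0.0720% of each cultured library's signal and 0.343 to 0.679% of each tumor's. Every tumor lay above all 6 cultured libraries for 43 of 47 members, and for 32.8% of all genes. The exceptions were Eif2ak2, Ifit2, Samd9l and Irgm1.

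**Figure D3:**
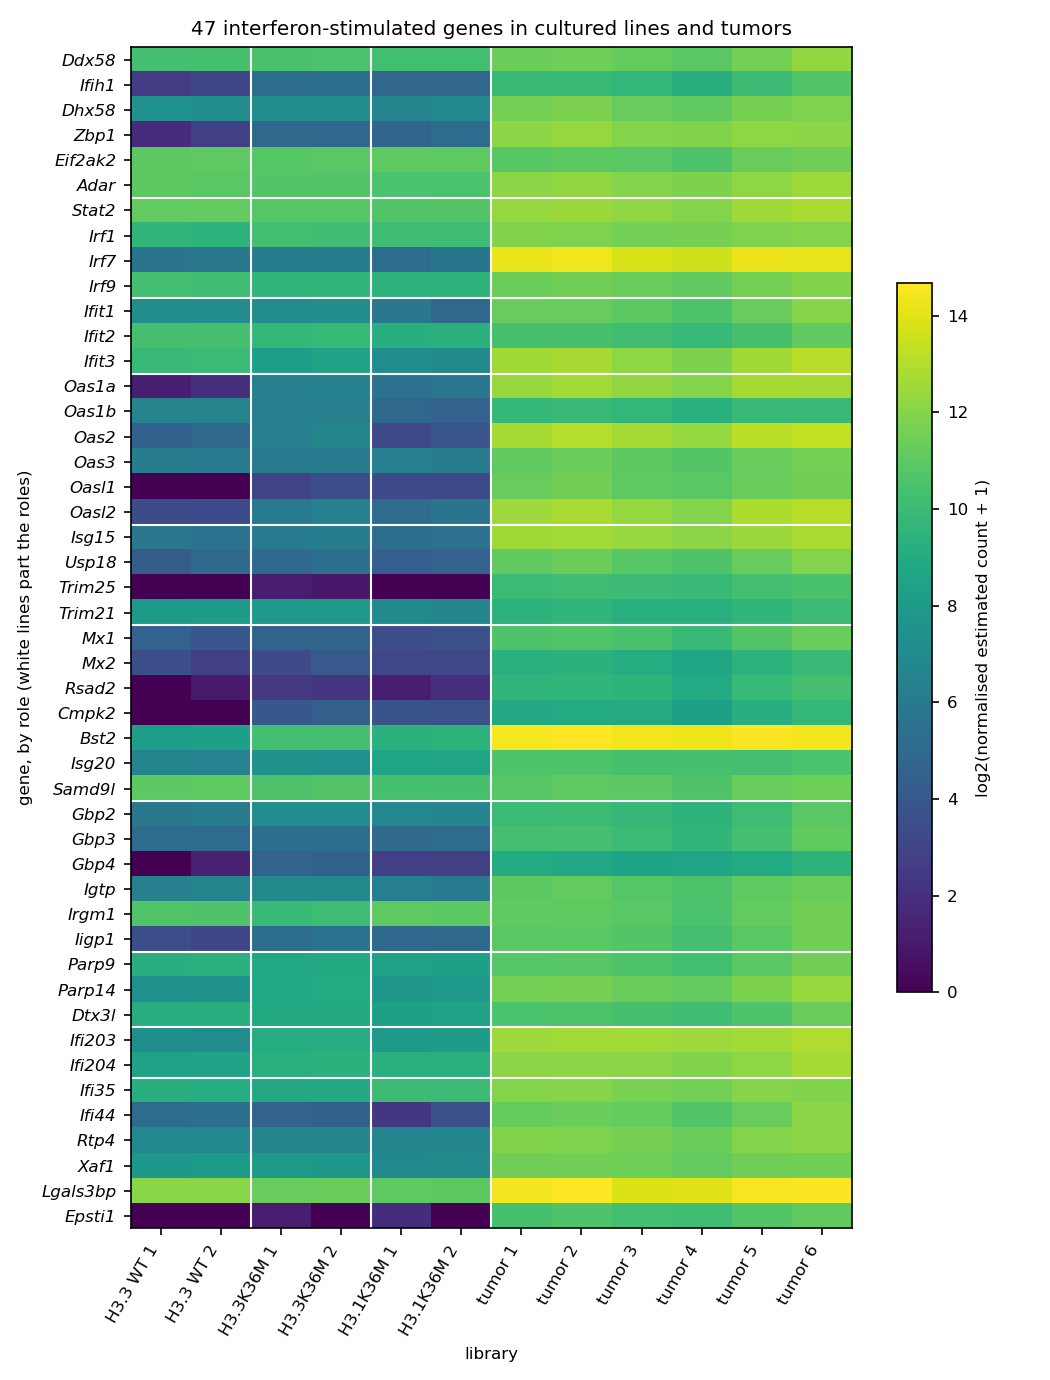
Log2(normalised estimated count + 1) of the 47 genes (rows, by role) in the 6 cultured libraries and 6 tumors of the second table (columns); brighter is higher, and colors compare libraries within a row, since values are not per length. Nearly every row is brightest in the tumors, while Eif2ak2, Ifit2, Samd9l and Irgm1 show cultured libraries as high as some tumors.

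Among sensors, Ifih1 ranged from 595 over a median of 948 to 1658 in tumors, against 35.8 and 40.8 in cultured H3.3K36M cells. Zbp1 ranged from 3829 over 4447 to 5215, against 29.5 and 28.5, and rose by 7.19 ± 0.12 (SE, log2). Eif2ak2, which encodes the kinase PKR, was an exception with 1535 to 2904 against 1811 and 1922 (log2 0.15, adjusted p = 0.53). Its tumor range overlapped the cultured values. Ddx58 (0.99), Adar (1.41) and Dhx58 (4.34) rose.

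All 4 transcription factors rose. Irf7 was lowest at 12457, had a median of 19014 and was highest at 20616, against 74.0 and 73.1 in culture, a rise of 7.84 ± 0.19 (SE, log2, adjusted p = 1.3e-09). Stat2 was at 3932 to 7161 with a median of 5457, against 1756 and 1871 (1.56 ± 0.20). Irf9 was at 2197 to 3843 with a median of 2823, against 775 and 816 (1.83 ± 0.19). Irf1 rose by 1.62. Stat2, Irf1 and Irf9 thus changed by 1.56 to 1.83, well under the change of Irf7.

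The effectors rose as well, with 2 exceptions. Isg15 ranged from 4370 over a median of 5931 to 7177 in tumors, against 65.8 and 73.7 (6.36 ± 0.17, SE, log2). Ifit1 ranged from 1534 over 2455 to 4156, against 133 and 154 (4.06 ± 0.30), and Ifit3 rose by 4.17. Ifit2 was at 905 to 2176 against 858 and 909, and did not pass the threshold (0.60, adjusted p = 0.063). All 6 OAS genes rose, by 3.39 for Oas1b to 8.00 for Oasl1, with Oas2 at 5187 to 10443, a median of 7687, against 80.8 and 104. Of the 7 antiviral effectors 6 rose, led by Rsad2, which encodes viperin (505, a median of 811 and 1293 against 4.63 and 3.80). Samd9l was the exception (0.35, adjusted p = 0.11). All 6 GBP and IRG genes, all 3 PARP and DTX3L genes and both p200 genes rose, with changes from 1.00 for Irgm1 to 5.47 for Iigp1.

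A few genes went from almost no reads to high levels. Epsti1, an interferon-inducible gene, was at 1.16 and 0 in culture and at 1169 to 2194 in tumors, with a median of 1476. The cultured libraries held 2 reads of Epsti1, so its ratio of 2124 has a 95% counting interval of 588 to 17542. Trim25, the ubiquitin ligase that activates RIG-I, was at 1.17 and 1.02 against 933 to 1403 with a median of 1101 (9.08 ± 0.17, SE, log2). Oasl1 was at 6.94 and 10.4 against 1903 to 2936 with a median of 2527, and Ifi44 at 24.0 and 22.8 against 1656 to 4454 with a median of 2417. In these 4 genes the lowest tumor was far above the highest cultured library of any line.

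Of the other pathway genes, 38 of 48 tested were higher in tumors and 5 lower. Ligand transcripts were scarce: Ifng was at 6.70 to 17.2 in tumors and at 0.58 and 0 in cultured H3.3K36M cells, Ifnb1 at 0 to 7.38 and at 0 in those cells, and the 4 alpha genes listed did not exceed 1.81 in any library. The cultured Ifng value rests on 1 read, so its ratio of 25.1 has a 95% counting interval of 4.31 to 1009. The receptors Ifnar2 and Ifngr1 rose by 1.42 and 1.19, whereas the kinases Jak1 and Jak2 fell by 1.17 and 1.18. All 16 interferon-gamma responsive genes rose, among them the chemokine genes Cxcl9 (270 to 432 against 2.47 and 1.89) and Cxcl10 (964 to 1734 against 4.62 and 7.59). Irf8, a transcription factor of myeloid and B cells, was at 4553 to 5373 against 1.73 and 0.95. Cxcl9, Cxcl10, Cxcl11, Irf8, Tlr9 and Ifng were under 10 in cultured H3.3K36M cells and entered the test only through the tumors. These genes could hardly be called lower.

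Markers of other cell types moved with these genes. Genes under 10 in both cultured H3.3K36M libraries entered these tests only through the tumors, so they could hardly be called lower. They made up 7 of 7 NK cell, 5 of 6 dendritic cell and 5 of 11 macrophage genes. Some genes of each further list, except the mesenchymal one, were of this kind too. Macrophage markers were higher in tumors for 11 of 11 genes tested and summed to 123503 to 168753, against 545 and 546 in cultured H3.3K36M cells. NK cell markers (7 of 7 higher) summed to 2518 to 9292 against 3.69 and 5.88, with Ncr1 at 0 in culture. Endothelial markers (6 of 7 higher) summed to 9454 to 29173 against 551 and 610, and dendritic cell markers (6 of 6 higher) to 1045 to 2227 against 33.5 and 48.0. T and B lymphocyte markers (4 of 5 tested higher, 1 lower) summed to 827 to 2019 against 38.5 and 38.8. Skeletal muscle markers (4 of 5 higher) summed to 792 to 20890 against 369 and 400, and keratinocyte markers (4 of 5 higher) to 161 to 29440 against 145 and 167. Red cell markers (4 of 5 higher) summed to 7664 to 19469 against 836 and 885, with Hbb-b1 at 951 to 2436 in tumors and 0 in culture. Neutrophil markers (3 of 3 tested higher) summed to 703 to 1660 against 441 and 523, with S100a9 at 120 to 308 in tumors and 0 in culture. Camp, at 7.51 and 5.70 in culture and 0 to 1.36 in tumors, was below the filter and not tested. Mesenchymal markers summed to 350014 to 410548 against 892373 and 951902. Col1a1, Col1a2, Vim and Fn1 made up most of these sums and were lower in every tumor, as were Pdgfrb and Prrx1. Thy1 was higher in every tumor, at 2344 to 3629 against 1173 and 1163. So was Twist1, at 1548 to 2147 against 1308 and 1257. Pdgfra overlapped, at 3974 to 6590 against 5722 and 5780. The part of these cells in the rise of the set was not tested. In bulk RNA, more cells of a type and more RNA per cell cannot be told apart.

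The 6 tumors also differed among themselves, and did so for most of the set at once. Tumor 6 was the highest for 38 of 47 members and tumor 4 the lowest for 42. Over 13987 genes with a median of at least 10 in the tumors, tumor 6 was the highest for 39.9% and tumor 4 the lowest for 20.2%, so both also stood at the extremes often outside the set. Relative to each gene's median over the tumors, the median member stood at 0.975, 1.04, 0.871, 0.717, 1.05 and 1.36 in tumors 1 to 6. The median over those 13987 genes lay between 0.993 and 1.03 in every tumor. The PARP and DTX3L group stood at 0.706 in tumor 4 and 1.66 in tumor 6, the GBP and IRG group at 0.704 and 1.52, and the RNA sensors at 0.748 and 1.39. Irf7 and Bst2 were among the genes not highest in tumor 6, and had their highest level in tumor 2 (20616 and 26100).

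Marker lists did not all follow this order. Macrophage markers had medians between 0.938 and 1.03 in all 6 tumors, with 0.938 in tumor 6, and mesenchymal markers between 0.945 and 1.03. NK cell markers stood at 1.82 in tumor 6 and 0.876 in tumor 4, endothelial markers at 1.14 and 0.740, and skeletal muscle markers at 14.1 and 0.529. Dendritic cell markers were at 0.840 in tumor 6 and 0.626 in tumor 4, and T and B lymphocyte markers at 1.61 and 0.895. Of the 11 macrophage markers, 4 were highest and 5 lowest in tumor 6. Ptprc and Emr1 were among the 4, with Ptprc at 5592 there and 2418 to 2966 in the other tumors, and Emr1 at 7589 there and 4048 to 4885 in the others. Their part in the order of the tumors was not tested. Ifng was highest in tumor 6 at 17.2, while Ifnb1 was at 2.29 there and highest in tumor 1 at 7.38.

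**Figure D4:**
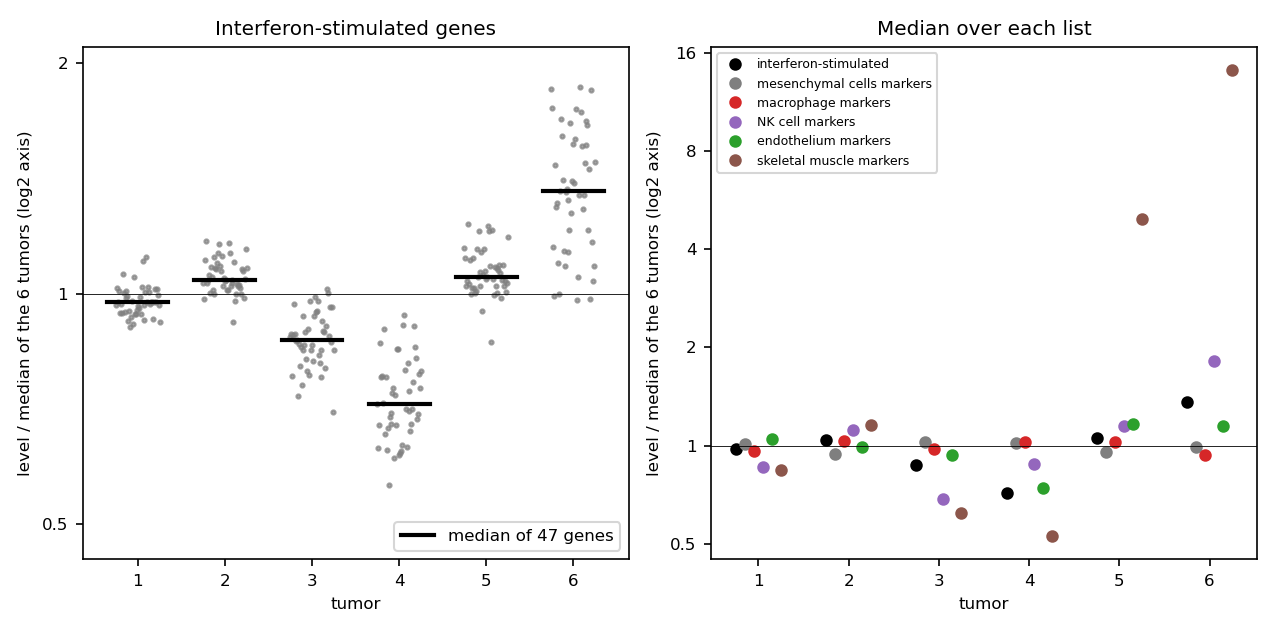
Left, level of each of the 47 genes divided by its median over the 6 tumors (log2 y axis, points) with the median over genes (bars); right, the same median for the set and 5 marker lists (points). The set's medians are lowest in tumor 4 at 0.717 and highest in tumor 6 at 1.36, macrophage markers stay between 0.938 and 1.03, and skeletal muscle markers reach 14.1 in tumor 6.

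Members with and without the ISRE letters in their promoter window were described side by side. In tumors, 16 of 17 members with the letters and 15 of 17 without were higher, with median log2 changes of 4.06 and 3.04 and ranges of 0.15 to 7.32 and 0.35 to 10.01. In H3.3K36M cells 8 of 16 with the letters were higher and 3 lower, and 5 of 14 without were higher and 8 lower. With HMT siRNA, 9 of 16 with the letters and 7 of 13 without were higher, and 1 of each was lower. In wild-type H3.3 against control siRNA cells, 14 of 16 with the letters and 6 of 14 without were lower. The Isg15 and Ifit1 stretches printed above belong to genes that rose with HMT siRNA and in tumors. Oas1a and Bst2 rose in both mutant lines and in tumors, and Ifit3, with the same kind of match, fell in both mutant lines and rose in tumors.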

How the data were processed

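RNA-seq libraries were aligned with Bowtie 1.0.0 and quantified with RSEM 1.2.12 with the mm9 build, as the submitters' processing notes list. What the authors deposited is a signal per gene and library, which is RSEM's estimated count divided by a factor per library, scaled separately in each of 3 tables of 20325 genes. The siRNA table (10 libraries) and the H3.1 and tumor table (12 libraries) were used, and the H3.3 table as an alternative. Only 35.0 to 56.1% of values were whole estimated reads (tolerance 0.01), so no count test was run. RSEM divides reads that match several genes. Log2(value + 1) was tested with limma 3.58.1 in R 4.3.3 (empirical Bayes, trend and robust), with Benjamini-Hochberg adjustment at 0.05, over all genes that reached a value of 10 in a number of libraries equal to the smaller group. Each fit held all cultured groups of its table, or the tumors and the cultured H3.3K36M cells, and shared 1 estimate of each gene's spread. SE are limma's moderated ones. Counting intervals cover counting error only, with a floor of 3 reads over a group. Values per library were given for Isg15, Ifit1, Irf7, Irf9 and Stat2 and, per comparison, the 8 members with the largest called change. Where groups of cultured libraries are said not to overlap, the share of all genes without overlap was not set beside it. 1 further gene is not reported here. Members and lists were chosen with earlier results of these data known. Fits were tested on simulated data. Alternatives were other pseudocounts, filters, normalisation, empirical Bayes options, libraries and tables, and a replicate block. Tables were handled in pandas 2.3.3 and numpy 2.4.6 (Python 3.11.15), intervals came from scipy 1.17.1, and figures from matplotlib 3.10.9.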

Additional observations from a re-analysis of the deposited data

Results flagged for a closer look

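For 9 of 47 genes, 1 tumor lay far from the other 5 by Dixon's gap test at its 95% critical value, which chance alone does in about 1 group in 20. Over 13987 genes with a median of at least 10 in the tumors, 19.4% had such a tumor, so the share among the 47 was close to that of all genes. In 8 of the 9 tumor 6 was the highest, as it was in this way for 13.6% of the 13987. Its levels and the next highest were 4156 and 2494 for Ifit1, 2176 and 1365 for Ifit2, 1946 and 1092 for Gbp2, 2166 and 1303 for Gbp3, and 2514 and 1613 for Dtx3l. For Ifi203 they were 7688 and 6471, for Ifi204 6515 and 4674, and for Ifi44 4454 and 2590. Xaf1 was lowest in tumor 4 at 2225, with 2727 next. The genes are not independent of each other.

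The response to H3.3K36M and the response to HMT siRNA were compared as the difference of both contrasts in limma. Values are given for 10 members past the threshold, the 8 with the largest difference together with Irf9 and Ifit1, so their number follows from that choice. The H3.3K36M response was more positive on the log2 scale by 1.89 for Ifih1, 2.43 for Oas1a, 1.48 for Oas2, 1.98 for Bst2 and 1.25 for Iigp1. It was more negative for Irf9 (-0.61), Ifit1 (-0.74), Ifit2 (-1.10), Ifit3 (-1.59) and Ifi44 (-1.58).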

How the results depend on the processing

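Over 87 pairs of a named gene and a comparison, 1181 values were recomputed under the alternatives. Of these, 1136 kept their side of the threshold, 38 lost the call, 7 gained it and 0 changed a called direction. Values past the threshold in neither setting could change sign, as Ifit1 did in H3.3K36M against wild-type H3.3 cells (0.03, at lowest -0.08). Of 192 counts of members, 187 stayed within 1.5 times. Members higher in wild-type H3.3 than in control siRNA cells numbered 1 with the replicate block and 2 to 4 with 1 library left out, against 4. Members lower in H3.1K36M than in H3.3K36M cells numbered 16 with all 12 libraries of the table, against 28, and the cause was not tested. Same-numbered libraries did not deviate together (correlations of -0.066 to 0.079), so the numbers were not taken as pairs. With the block as a term, members higher and lower numbered 20 and 13 for H3.3K36M, 25 and 4 for HMT siRNA and 46 and 0 for tumors. Genes with few reads in a reference group, such as Gbp4, Zbp1 and Cmpk2, moved most with the pseudocount: Cmpk2 rose in H3.3K36M cells by 1.23 to 7.08.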

Other observations

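Genes around Trim25 and Epsti1 differed in whether they were read in cultured cells. Trim25 was at 0 to 1.17 in the 6 cultured libraries of the second table and at 933 to 1403 in tumors. Its neighbours on either side, Coil and Dgke, were at 425 to 540 and 217 to 323 in culture and at 340 to 409 and 124 to 211 in tumors. Epsti1 was at 0 to 2.79 in culture and 1169 to 2194 in tumors, while its neighbour Dnajc15 was at 253 to 455 and 1077 to 1471, and Akap11, further along, at 2782 to 3643 and 467 to 999. Other genes nearby were at or near 0 in culture and stayed low in tumors. Fam216b, on the other side of Epsti1, was at 0 in culture and at 0 to 0.67 in tumors, Tnfsf11 at 0 and 1.44 to 6.88, and Enox1 at 0 to 5.78 and 4.33 to 12.6. Near Trim25, Gm525 was at 0 in culture and 1.17 to 5.36 in tumors, and Nog at 3.49 to 334 and 0.67 to 7.22. These genes were chosen after their values were seen.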
